A study of Mus musculus with 4 samples.

Results

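Acute phase proteins and secreted antimicrobial proteins are released by epithelia and liver during inflammation and infection. The genes described here are 8 of the 12393 genes that a probe set of the array named alone, and they were chosen by symbol: Saa1, Saa3, Lcn2, Orm1, Lpo, Wfdc12, Wfdc18 and Slpi. They were read by 9 of the 22626 probe sets, 2 of them for Saa1 and 1 for each other gene. The choice was made with the levels of these genes on the same arrays known, so every value below is a description and none is a test. A gene was counted as measured when its highest value reached the median of the table, 20.04 intensity units. All 8 were measured, among 7461 genes in all, but Saa1 reached that level in control 4OHT cells alone, so it could be counted only by being higher there.

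RNA came from primary keratinocytes of the tail skin of C57BL/6 mice, and all of the cells carried a floxed Prdm1 gene, which Cre recombinase can cut. Prdm1 encodes Blimp-1, a transcriptional repressor of the upper epidermis. The 4 groups were CKO 4OHT (with CreER, given 4-hydroxytamoxifen), CKO EtOH (with CreER, given the solvent ethanol), control 4OHT (without CreER, given 4-hydroxytamoxifen) and control EtOH (without CreER, given ethanol). CreER is a Cre recombinase that 4-hydroxytamoxifen (4OHT) switches on. Cells grew in serum-free medium on collagen-coated plates. The agent was present from day 1 to day 3 of culture and cells were taken on day 5. The labels do not name the promoter that drives CreER, the age of the mice or the number of mice behind each culture. CKO and control cells came from different mice, so genotype and animal cannot be told apart, nor can Cre activity and loss of Blimp-1. Each group had 1 array, so no difference has a replicate check, and the small number of arrays bounds the precision.

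Serum amyloid A proteins (Saa1, Saa3) and the orosomucoid Orm1 are classical acute phase proteins, made in liver and in inflamed epithelia. Their genes are known to respond to interleukin-1 and to the interleukin-6 family, through NF-kB, STAT3 and C/EBP factors. Lipocalin-2 (Lcn2) withholds iron from bacteria, and lactoperoxidase (Lpo) makes antibacterial oxidants from hydrogen peroxide. Wfdc12, Wfdc18 and Slpi are small secreted proteins with the four-disulfide core of whey acidic protein, called the WAP domain, and Slpi inhibits serine proteases of leukocytes as well as killing microbes.

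The bases before the transcription start are shown for 4 genes, because Saa3 and Saa1 were, with Wfdc18, the 3 whose 4OHT differences lay furthest apart between the genotypes, Lcn2 had the same order of arrays over a smaller range, and Slpi did not follow them. Each window holds the 250 bases before the start from RefSeq on GRCm38.p6, 5′ to 3′ on the gene's strand. Capitals mark matches to the motifs named below them.
Saa3, chr7:46715677-46715926, minus strand: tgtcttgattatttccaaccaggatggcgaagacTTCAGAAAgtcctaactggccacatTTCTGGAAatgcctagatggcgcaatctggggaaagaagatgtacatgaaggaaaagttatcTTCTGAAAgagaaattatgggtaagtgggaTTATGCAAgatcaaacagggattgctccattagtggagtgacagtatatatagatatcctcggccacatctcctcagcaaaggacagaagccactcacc
Saa1, chr7:46742981-46743230, minus strand: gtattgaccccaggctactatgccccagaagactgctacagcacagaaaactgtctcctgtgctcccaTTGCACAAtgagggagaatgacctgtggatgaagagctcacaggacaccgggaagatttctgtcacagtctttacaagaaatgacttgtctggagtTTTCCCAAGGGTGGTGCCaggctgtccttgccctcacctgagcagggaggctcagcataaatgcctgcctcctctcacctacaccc
Lcn2, chr2:32387740-32387989, minus strand: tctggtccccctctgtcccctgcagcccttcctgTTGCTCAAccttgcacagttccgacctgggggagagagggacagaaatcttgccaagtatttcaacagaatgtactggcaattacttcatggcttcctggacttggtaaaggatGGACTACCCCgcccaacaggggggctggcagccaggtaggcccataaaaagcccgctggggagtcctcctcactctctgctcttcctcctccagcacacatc
Slpi, chr2:164356508-164356757, minus strand: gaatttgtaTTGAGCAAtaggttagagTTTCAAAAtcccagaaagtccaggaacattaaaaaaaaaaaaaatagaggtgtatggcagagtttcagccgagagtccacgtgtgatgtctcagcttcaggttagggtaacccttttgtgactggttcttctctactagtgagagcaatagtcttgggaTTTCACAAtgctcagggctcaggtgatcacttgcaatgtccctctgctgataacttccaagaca
Motifs were searched on both strands, as letters of the type bound by factors of the acute phase response and by Blimp-1. The C/EBP type, TTNNGNAA, matched in 6 of the 7 windows found for these genes and in 36.8% of all 32851 windows. The NF-kB type, GGG and CC with any 5 bases between, matched in 3 (Lcn2, Wfdc12 and Saa1), against 45.8% of all windows. In Saa1 a C/EBP type match ended at base -79 and an NF-kB type match began at base -78, so they print as 1 run of capitals, and no matches overlapped in the 4 windows shown. The STAT type, TTCNNNGAA, and the Blimp-1 type, AGNGAAAG, matched in 0 of the 7 windows, against 7.02% and 7.3% of all windows. A match is a string of letters and not a bound site, and its absence covers these windows alone. No window was found for Orm1.

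Prdm1 itself had intensities of 6.43 in CKO 4OHT and 16.96 in CKO EtOH, against 52.4 in control 4OHT and 20.7 in control EtOH, so the array labelled as the deleted culture was lowest. Whether its probes lie in the deleted part of the gene is not known here, and if they lie outside it they do not check the deletion. The basal keratins Krt14 and Krt5 differed by no more than 0.20 on the log2 scale between any array and control EtOH, and the 7 keratinocyte markers measured had summed levels of 12758 in CKO 4OHT, 13601 in CKO EtOH, 14155 in control 4OHT and 13476 in control EtOH. The suprabasal keratin Krt1 was 21.8 in CKO 4OHT and 205 in CKO EtOH, against 246 in control 4OHT and 136 in control EtOH. Over all measured genes the median absolute log2 difference between 2 arrays was 0.13 to 0.22.

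Across the 4 arrays, 7 of the 8 genes had the same order of levels, from lowest to highest CKO 4OHT, control EtOH, CKO EtOH and control 4OHT, and Slpi was the exception. That order was found in 6.07% of measured genes. Saa3 spanned the widest range of the 8. Saa3, a serum amyloid A of epithelia and macrophages in mice, had intensities of 10.7 in CKO 4OHT, 69.5 in CKO EtOH, 84.1 in control 4OHT and 25.6 in control EtOH. CKO 4OHT lay under the level filter and the other 3 arrays above it, with both ethanol cultures between the extremes. In CKO 4OHT it was 6.50-fold below CKO EtOH and 7.86-fold below control 4OHT.

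Saa1, a serum amyloid A of plasma, had intensities of 5.20 in CKO 4OHT, 19.1 in CKO EtOH, 23.7 in control 4OHT and 7.18 in control EtOH by probe set 1450788_at. Its other probe set, 1419075_s_at, read 4.55, 13.5, 24.3 and 5.93 on the same arrays in that order. Both probe sets put CKO 4OHT lowest and control 4OHT highest. Their low ends are close to the floor of the array, since CKO 4OHT lay below the 25th percentile of its array, 7.11, by either probe set, so the folds of Saa1 are imprecise. The accession behind 1419075_s_at is that of Saa2 in RefSeq, a near-identical gene, and a probe set annotated to Saa2 was at no more than 6.96 on any array, so Saa1 and Saa2 are not separated with certainty.

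Orm1, a carrier protein of plasma, had intensities of 62.9 in CKO 4OHT, 134 in CKO EtOH, 214 in control 4OHT and 95.9 in control EtOH. Every array was above the level filter, and CKO 4OHT was 2.13-fold below CKO EtOH and 3.40-fold below control 4OHT. These are bulk cultures, so fewer cells that express a gene and less RNA in each cell cannot be told apart.

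Among the antimicrobial effectors, Lcn2 had intensities of 279.8 in CKO 4OHT, 594 in CKO EtOH, 875 in control 4OHT and 355 in control EtOH. It was well above the filter on each array and was lowest in CKO 4OHT, where it stood 2.12-fold below CKO EtOH. Lpo had intensities of 24.4 in CKO 4OHT, 59.3 in CKO EtOH, 116 in control 4OHT and 56.4 in control EtOH. For Lpo the ethanol cultures of the 2 genotypes were close together, 0.07 apart on the log2 scale, with CKO 4OHT below and control 4OHT above them.

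The WAP domain genes split. Wfdc12, a WAP protein with antibacterial activity, had intensities of 21.1 in CKO 4OHT, 67.0 in CKO EtOH, 108 in control 4OHT and 36.7 in control EtOH. Wfdc18, also known as Expi, had intensities of 17.6 in CKO 4OHT, 74.8 in CKO EtOH, 109 in control 4OHT and 36.2 in control EtOH. These genes had nearly the same profile, and both were at or near the level filter in CKO 4OHT. Wfdc18 was read by probe set 1417160_s_at, a type that can pick up related transcripts.

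Slpi went the other way in CKO 4OHT cells. Its intensities were 3127 in CKO 4OHT, 1655 in CKO EtOH, 2099 in control 4OHT and 1486 in control EtOH. CKO 4OHT was the highest array, 1.49-fold above control 4OHT and 1.89-fold above CKO EtOH. Neither reached the 2-fold size counted here.

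**Figure D1:**
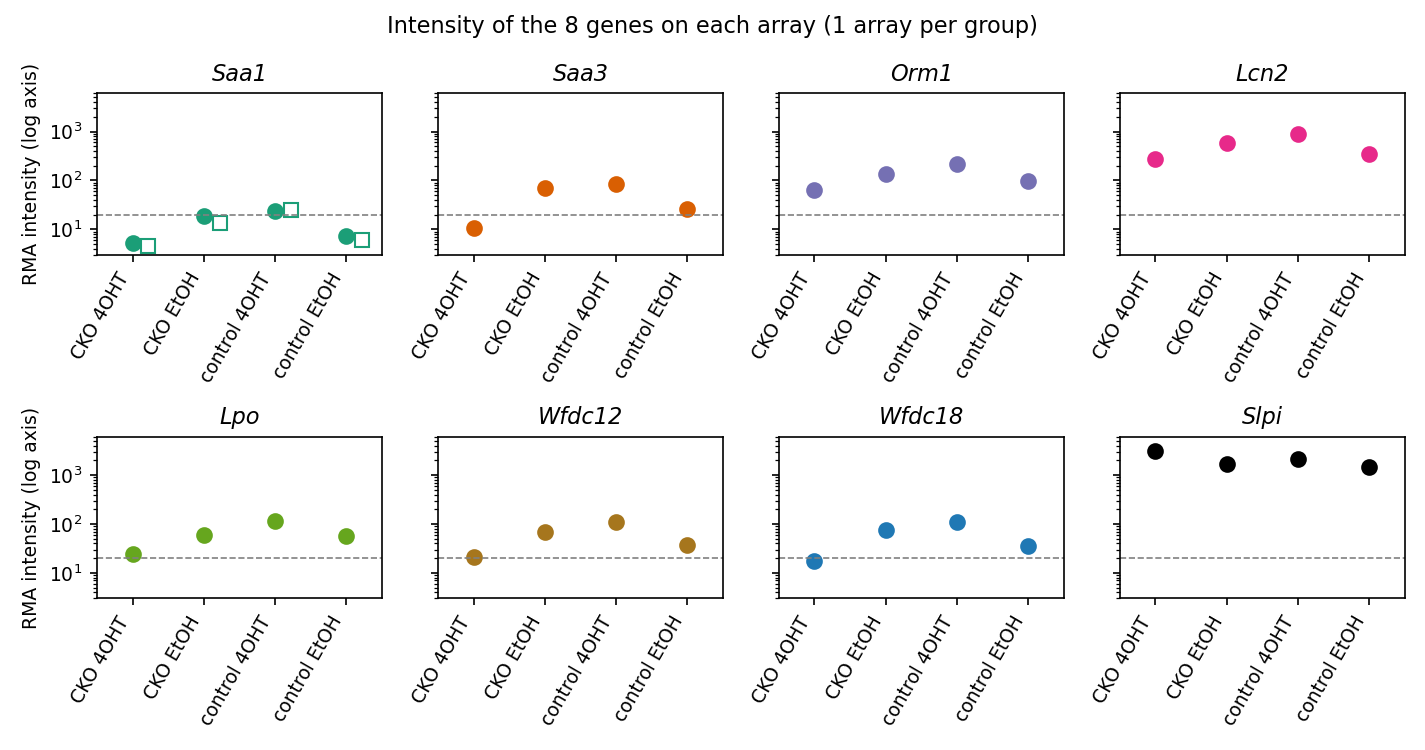
RMA intensity (vertical axis, log scale) of each of the 8 genes on the 4 arrays, 1 point per array and no error bars because each group had 1 array. Filled circles are the probe set used for the gene, open squares the second Saa1 probe set, and the dashed line is the level filter of 20.04. Of the 8 genes, 7 are lowest in CKO 4OHT and highest in control 4OHT, and Slpi is highest in CKO 4OHT at 3127.

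The profiles were compared by the root mean square difference of log2 values over the 4 arrays, after each gene's own mean was subtracted. Between pairs of the 7 genes other than Slpi (21 pairs), it ran from 0.11 for Lcn2 with Orm1 to 0.61 for Saa3 with Lcn2, with a median of 0.34. Wfdc12 and Wfdc18 were 0.15 apart. Slpi was 0.87 to 1.46 from each of the 7.

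CKO 4OHT was first set against CKO EtOH, the inducer against its solvent in cells with CreER. On the log2 scale 7 of the 8 genes were lower by at least 1 (2-fold), where 1.86% of measured genes were, and 0 were higher, where 1.78% of measured genes were. The differences were -2.70 for Saa3, -2.09 for Wfdc18, -1.87 for Saa1, -1.67 for Wfdc12, -1.28 for Lpo and -1.09 for both Orm1 and Lcn2, which were just past the 2-fold size, while Slpi, at 0.92, was just short of it. The median over the 8 was -1.48, and over all measured genes 0.01. With 16 intensity units added before the logarithm, which damps dim values, 4 genes stayed past 2-fold (Saa3, Wfdc18, Wfdc12 and Lcn2).

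CKO 4OHT was then set against control 4OHT, CreER against its absence with the drug on both sides, which shares the CKO 4OHT array with the comparison above. Again 7 genes were lower and 0 higher, where 2.24% and 1.45% of measured genes were. Saa1 is among the 7, though it was measured only through control 4OHT. The median over the 8 was -2.22, against 0.01 over all measured genes. Saa3 was at -2.97, Wfdc18 at -2.62, Wfdc12 at -2.36, Lpo at -2.25, Saa1 at -2.19, Orm1 at -1.76 and Lcn2 at -1.65, and Slpi at 0.58. So the 7 genes lay further apart here than against CKO EtOH.

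The control 4OHT array was itself the high end of these genes. In control 4OHT against control EtOH, cells without CreER, 7 of the 8 genes were higher by at least 2-fold, where 1.27% of measured genes were, and 0 were lower, where 0.241% were. Saa1 was 3.30-fold higher, Saa3 3.28-fold, Wfdc18 3.00-fold, Wfdc12 2.94-fold, Lcn2 2.47-fold, Orm1 2.23-fold and Lpo 2.05-fold, and Slpi was 1.41-fold higher. The median over the 8 was 1.43 on the log2 scale, and over all measured genes -0.04. Saa1 was measured only through control 4OHT, so the filter favoured its place in this count. Its control EtOH value of 7.18 was also near the floor.

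The ethanol cultures differed too. In CKO EtOH against control EtOH only 4 of 7461 measured genes (0.0536%) were higher by at least 2-fold and 0 were lower. The 4 were Esr1 (2.26 on the log2 scale), the estrogen receptor gene whose ligand-binding part CreER carries, then Saa3 (1.44), Saa1 (1.41) and Wfdc18 (1.05). Wfdc12 (0.87) was sixth from the top of all measured genes and Lcn2 (0.74) was eleventh, while Orm1 was at 0.48, Slpi at 0.16 and Lpo at 0.07. Thus 3 of the 8 genes were higher in CKO cells without the inducer, and the count was 1 (Saa3) with 16 units added before the logarithm. Saa1 was under the level filter on both of these arrays, at 19.1 in CKO EtOH and 7.18 in control EtOH.

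**Figure D2:**
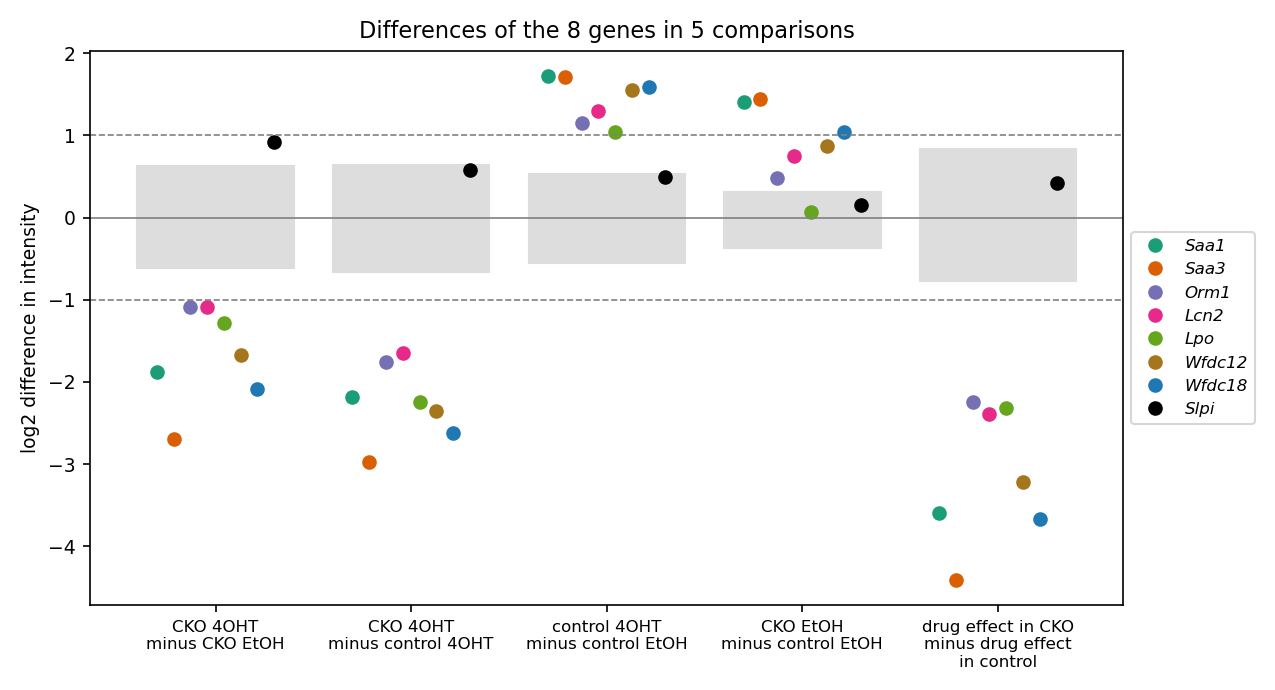
Log2 difference in intensity of each gene (points, 1 value each) in 5 comparisons, with the 5th to 95th percentile of all 7461 measured genes as a grey box and dashed lines at 2-fold. Apart from Slpi, the genes lie below -1 in both comparisons of CKO 4OHT and above 1 in control 4OHT minus control EtOH.

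Because control 4OHT and CKO EtOH were high, the CKO 4OHT array was also set against control EtOH, a comparison added after the values were seen. There the differences were smaller. They were -1.26 for Saa3, -1.21 for Lpo, -1.04 for Wfdc18, -0.80 for Wfdc12, -0.61 for Orm1, -0.46 for Saa1 and -0.34 for Lcn2, and Slpi was at 1.07. So 3 genes were lower by at least 2-fold, where 1.76% of measured genes were, and 1 was higher, where 1.7% were. For the same 3, Saa3, Lpo and Wfdc18, CKO 4OHT was 2-fold or more under all of the other arrays, where 1.09% of measured genes had this. For 0 of the 8 was CKO 4OHT (0.751% of measured genes) or control 4OHT (0.281%) that far above the other arrays, or control 4OHT that far below them (0.0268%). The count of 3 became 7 with control EtOH left out, and 0 with 16 units added before the logarithm.

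The 4OHT difference had opposite signs in the 2 genotypes for 7 of the 8 genes. CKO minus control, the difference of the 4OHT differences was -4.41 for Saa3, -3.67 for Wfdc18, -3.60 for Saa1, -3.22 for Wfdc12, -2.39 for Lcn2, -2.32 for Lpo and -2.25 for Orm1 on the log2 scale, and 0.42 for Slpi. By this measure 7 genes were lower by at least 2-fold, where 2.9% of measured genes were, and 0 were higher, where 2.75% were. The median over the 8 was -2.81, and over all measured genes 0.04. Being at least 2-fold lower with 4OHT in CKO cells and at least 2-fold higher with 4OHT in control cells held for 20 measured genes (0.268%), and 7 of those 20 are among the 8 described here. The other 13, named after their values were seen, were Prdm1, Aldoc, Blnk, Hrnr, Igfbp3, Rnase2b, Rptn, Sprr2f and 5 Lce genes, Lce1a2, Lce1b, Lce1d, Lce1h and Lce1i, several of which encode proteins of the cornified envelope. The 8 genes were chosen with these levels known, and Saa1 was measured only through control 4OHT. So the 7 of 20 is a description and not a test.

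**Figure D3:**
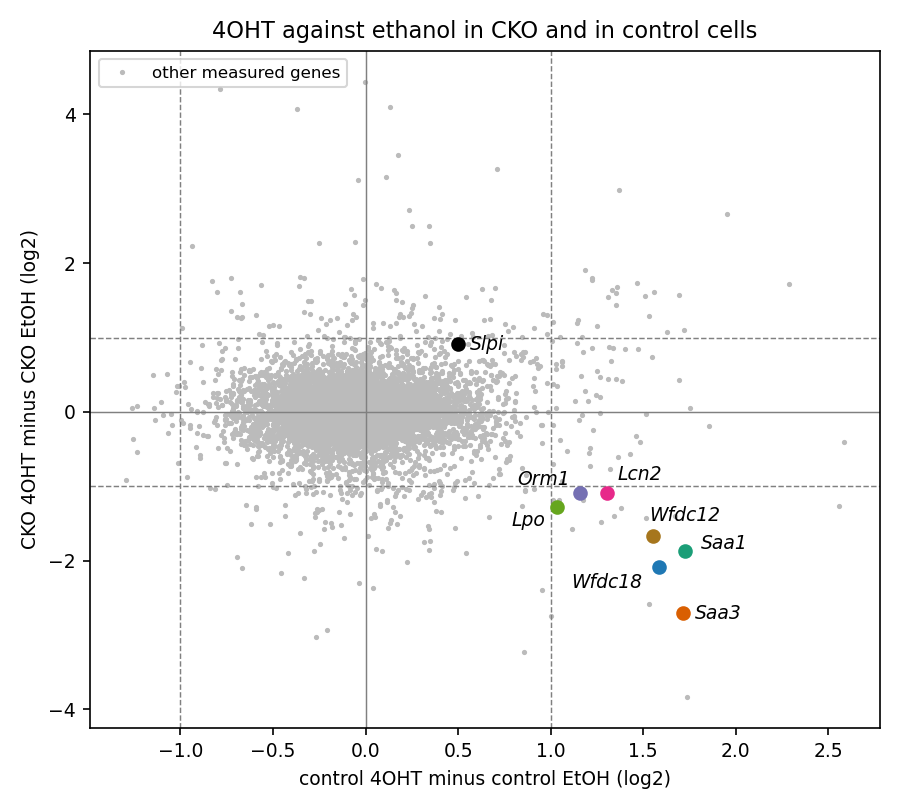
Log2 difference between 4OHT and ethanol in CKO cells (vertical axis) against that in control cells (horizontal axis), 1 point per measured gene, dashed lines at 2-fold. The lower right corner beyond both lines holds 20 genes, 7 of them labelled, and Slpi lies at 0.92 and 0.50 in the upper right.

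For each of the 8, the 3 measured genes nearest in profile were sought outside the 8. Among themselves the 8 could be nearer, as Wfdc18 was to Saa3 (0.22). The genes outside were 15 different genes, 11 of them named once. They are given with their root mean square difference over 4 arrays, which is few points for a likeness. Blnk, an adaptor protein known from B cells, was among the 3 nearest of 5 genes (Saa1, Orm1, Lpo, Wfdc12 and Wfdc18), and Sprr2f, a small proline-rich cornified envelope protein, of 4 (Saa1, Saa3, Wfdc12 and Wfdc18). Igfbp3, which binds insulin-like growth factors, was nearest to Saa3 (0.31), with intensities of 99.9 in CKO 4OHT, 672 in CKO EtOH, 797 in control 4OHT and 399 in control EtOH. Lce1h, a late cornified envelope protein, was nearest to Lpo (0.07) and the aldolase Aldoc to Orm1 (0.09). Il1rn, the interleukin-1 receptor antagonist, was nearest to Lcn2 (0.15). The immediate early genes Ier2 (0.06) and Junb (0.06) were nearest to Slpi, and Junb had intensities of 159 in CKO 4OHT, 84.9 in CKO EtOH, 105 in control 4OHT and 82.5 in control EtOH.

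Of 19 further acute phase genes, 18 had a probe set of their own and 2 were measured, so most of this group, including haptoglobin, fibrinogen chains and C-reactive protein, stayed under the level filter. Steap4, a metalloreductase that responds to inflammatory cytokines, had intensities of 154 in CKO 4OHT, 627 in CKO EtOH, 491 in control 4OHT and 421 in control EtOH. It was 2.02 log2 below CKO EtOH and 1.67 below control 4OHT, and its other measured probe set differed by -2.07 and -2.06. In control 4OHT it stood only 0.22 log2 above control EtOH, where the 7 genes stood at least 1.04 above. Serpina3n, a serine protease inhibitor, had 13.0 in CKO 4OHT, 23.0 in CKO EtOH, 27.8 in control 4OHT and 26.0 in control EtOH.

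Genes of interleukin-6 family signalling on the lists differed among themselves. Il6st, the shared receptor chain gp130, had intensities of 123 in CKO 4OHT, 346 in CKO EtOH, 329 in control 4OHT and 299.5 in control EtOH, although its other measured probe sets differed by only -0.46 and -0.73 between CKO 4OHT and CKO EtOH. Osmr, the oncostatin M receptor, had 48.0 in CKO 4OHT, 111 in CKO EtOH, 114 in control 4OHT and 122 in control EtOH, and its second probe set differed by -0.59 in the first of these comparisons. Socs3, the feedback inhibitor that STAT3 induces, had 40.3 in CKO 4OHT, 82.4 in CKO EtOH, 81.0 in control 4OHT and 101 in control EtOH, and its other probe sets differed by -0.85 and -0.41. On every measured probe set of Osmr and Socs3 the CKO 4OHT array was lowest, but 1 probe set of Il6st read 29.2 in CKO 4OHT and 40.2 in CKO EtOH, against 34.3 in control 4OHT and 28.1 in control EtOH. Stat3 itself was at 223 in CKO 4OHT, 378 in CKO EtOH, 402 in control 4OHT and 338 in control EtOH. Jak1, a kinase of these receptors, differed by -0.18 between CKO 4OHT and CKO EtOH, and Il6ra, the interleukin-6 receptor, by -0.02, with 23.2 in CKO 4OHT, 23.5 in CKO EtOH, 31.2 in control 4OHT and 24.5 in control EtOH. Il6 was under the level filter on all arrays.

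Of the 13 measured inducing cytokines and receptors, 2 were higher (Lif and Il1a) by at least 2-fold in CKO 4OHT against CKO EtOH. Another 2 (Il6st and Osmr) were lower by that much, and the median was -0.11. Of all measured genes 1.78% were higher and 1.86% lower. These counts are for the probe set used for each gene. Against control 4OHT, Il1rn was also lower, which made 3, and the median was -0.43. There 1.45% of all measured genes were higher and 2.24% lower. Lif, a cytokine of the interleukin-6 family, had 71.2 in CKO 4OHT, 25.2 in CKO EtOH, 24.9 in control 4OHT and 22.3 in control EtOH. Il1a, an alarm cytokine that induces acute phase genes, had 36.9 in CKO 4OHT, 13.2 in CKO EtOH, 14.5 in control 4OHT and 12.7 in control EtOH. By the probe sets used, both of these cytokines were highest on the array where Saa1, Saa3 and Lcn2 were lowest. A second Lif probe set stayed under the level filter, at 7.34 in CKO 4OHT and 8.49 in control 4OHT. Whether these levels are related was not tested. Il1rn, on the probe set used, had 41.0 in CKO 4OHT, 70.0 in CKO EtOH, 100.1 in control 4OHT and 40.0 in control EtOH. That follows the order of the 7 genes except that its lowest values were nearly equal. Another Il1rn probe set read 16.8, 39.5, 72.7 and 20.7 on these arrays in that order, which is the order of the 7 genes. It differed by -1.23 between CKO 4OHT and CKO EtOH, and a further probe set by -0.59. Tnf had 40.3 in CKO 4OHT, 20.2 in CKO EtOH, 24.1 in control 4OHT and 27.8 in control EtOH.

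Among 13 measured transcription factors and feedback genes, Socs3 was the 1 gene past 2-fold in either comparison of CKO 4OHT, with medians of -0.23 against CKO EtOH and -0.25 against control 4OHT. Cebpb, a C/EBP factor of the acute phase response, differed by 0.21 and 0.26, and Nfkbia, an NF-kB inhibitor and target, by 0.02 and -0.05. Relb, an NF-kB subunit, had 27.1 in CKO 4OHT, 51.4 in CKO EtOH, 50.2 in control 4OHT and 38.0 in control EtOH. By the probe sets used, the difference of the 4OHT differences was lower by at least 2-fold for 2 genes of this list. They were Relb (-1.32) and Stat3 (-1.01), and 2.9% of all measured genes were lower by that much.

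**Figure D4:**
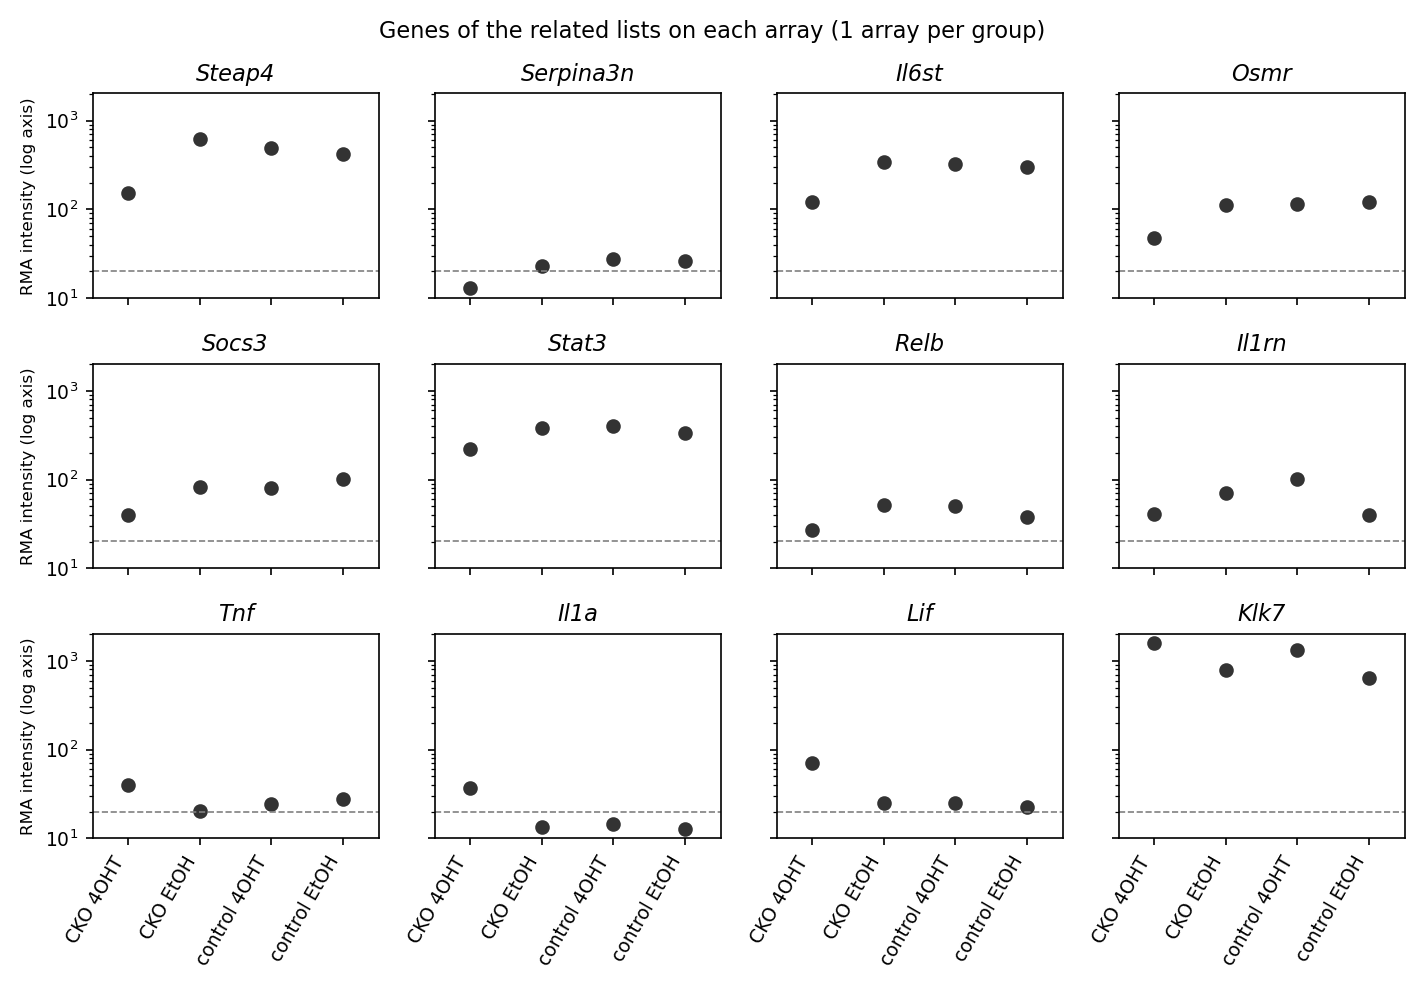
RMA intensity (vertical axis, log scale) on the 4 arrays of 12 genes from the related lists, 1 point per array, with the level filter as a dashed line. On the probe sets shown, Steap4, Il6st, Osmr and Socs3 are lowest in CKO 4OHT, while Lif, Il1a and Tnf are highest in CKO 4OHT.

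Other secreted antimicrobials did not follow 1 pattern. By the probe sets used, 2 of 8 measured genes were higher by at least 2-fold in CKO 4OHT against CKO EtOH and 0 lower. Of all measured genes 1.78% were higher and 1.86% lower. Against control 4OHT 0 were higher and 2 lower (Defb1 and Defb6), where 1.45% and 2.24% of measured genes were. In control 4OHT against control EtOH 4 were higher (S100a9, Defb3, Defb4 and Defb6), with a median of 1.09, and 0 were lower. Of all measured genes 1.27% were higher and 0.241% lower. The difference of the 4OHT differences was lower by at least 2-fold for 4 (S100a8, S100a9, Defb1 and Defb6), with a median of -0.85. It was lower by that much for 2.9% of all measured genes. The beta-defensin Defb6 had 36.5 in CKO 4OHT, 48.4 in CKO EtOH, 152 in control 4OHT and 25.4 in control EtOH, so control 4OHT stood apart as the highest. The beta-defensin Defb4 had 154 in CKO 4OHT, 46.5 in CKO EtOH, 82.8 in control 4OHT and 29.9 in control EtOH, and Defb3 had 455, 138, 487 and 99.6 on these arrays in that order. Both were higher with 4OHT in either genotype. Defb1, a constitutive beta-defensin, had 208 in CKO 4OHT, 404 in CKO EtOH, 549 in control 4OHT and 365 in control EtOH, which is the order of the 7 genes. Between CKO 4OHT and CKO EtOH it differed by -0.96 on this probe set. Its second probe set, with 180, 429, 520 and 338 on these arrays in that order, differed by -1.25, past 2-fold. S100a9, a subunit of calprotectin, had 2187 in CKO 4OHT, 2588 in CKO EtOH, 4308 in control 4OHT and 1838 in control EtOH.

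In the WAP domain family, 3 further genes were measured of 7 with a probe set of their own. Of the 3, 0 were past 2-fold in either comparison of CKO 4OHT. Of all measured genes 1.78% were higher and 1.86% lower against CKO EtOH, and 1.45% and 2.24% against control 4OHT. Wfdc5 had the largest difference of the 4OHT differences, -1.09, with 19.7 in CKO 4OHT, 23.8 in CKO EtOH, 27.9 in control 4OHT and 15.8 in control EtOH. Wfdc2 went the other way, at 0.98, with 47.0 in CKO 4OHT, 39.2 in CKO EtOH, 28.5 in control 4OHT and 47.1 in control EtOH. Wfdc1 was at -0.07. Klk7, a protease of the cornified layer that Slpi can inhibit, had 1592 in CKO 4OHT, 792 in CKO EtOH, 1343 in control 4OHT and 648 in control EtOH. Like Slpi it was higher with 4OHT in both genotypes. The leukocyte protease genes Elane, Ctsg, Prtn3 and Cma1 were under the level filter on every array. Of the genes around lactoperoxidase, Duoxa1, which helps a hydrogen peroxide source mature, had 213 in CKO 4OHT, 180.1 in CKO EtOH, 173 in control 4OHT and 207 in control EtOH, and Cyba had 24.6, 21.0, 20.6 and 17.9 in that order. Among receptors and binding partners 0 of 5 measured genes were past 2-fold in any comparison. The brightest, Anxa2, which binds Slpi, had 4465 in CKO 4OHT, 4964 in CKO EtOH, 4949 in control 4OHT and 5038 in control EtOH.

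Neutrophils and macrophages also make several of these proteins, so their markers were read on the same arrays. Of 10 neutrophil markers 0 reached the level filter, the highest value was 18.7, and the summed levels were 96.6 in CKO 4OHT, 93.0 in CKO EtOH, 101 in control 4OHT and 97.4 in control EtOH. Of 10 macrophage markers 2 reached it, Cd68 and Cd14, and the sums were 196 in CKO 4OHT, 263 in CKO EtOH, 283 in control 4OHT and 273 in control EtOH. Cd68, a lysosomal protein, accounted for most of that, with 98.2 in CKO 4OHT, 171 in CKO EtOH, 198 in control 4OHT and 178 in control EtOH. Cd14 went the other way, with 32.8 in CKO 4OHT, 22.4 in CKO EtOH, 19.6 in control 4OHT and 26.4 in control EtOH. Csf1r, Adgre1 and the C1q genes stayed under the filter. Melanocyte markers, 3 of 5 over the filter, summed to 114 in CKO 4OHT, 91.0 in CKO EtOH, 96.8 in control 4OHT and 93.9 in control EtOH. Dcn was the 1 measured gene of 6 fibroblast markers and Cd3e of 5 T cell markers, and 0 of 5 Langerhans cell and 0 of 4 endothelial markers were measured. No marker was listed at 0. The part of other cell types in the differences was not tested.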

How the data were processed

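RNA of 4 cultures, 1 per group, was read on the Affymetrix Mouse Expression Array 430A after 3′ in vitro transcription labelling, per the labels' protocols. The deposited table holds linear intensities, 1 for every probe set on every array, between 2.66 and 7167. Per the submitters' processing notes the authors made them with RMA, which corrects background, normalizes between arrays and summarises probes. No version of it is named. RMA evens out array-wide shifts and compresses dim differences, and the table has no detection calls. The arrays had medians of 19.95 to 20.22, and 50 to 84 values were identical between any 2 arrays, so none was a copy.

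From the deposited intensities log2 was taken with no pseudocount (Python 3.11.15, pandas 2.3.3, numpy 2.4.6). Of 22626 probe sets, 20380 named 1 gene in the platform annotation, 691 several and 1555 were not listed. A gene was represented by its probe set with the highest mean log2 value, and counted as measured when any array reached the table's median (20.04 intensity units). A difference counted at 2-fold. With 1 array per group there was nothing to test against, so the text holds no p-value. Counting was tested on simulated data with shifts well past 2-fold, so that check does not cover genes near 2-fold or near the floor. Members and lists were chosen with earlier results of these data known. Named genes are the 8 members and the markers over the filter. List genes were named when at least 2-fold different in a comparison (up to 6 per list), or else the 2 brightest. The 3 nearest profiles per member, among genes outside the 8, were named too. Other genes were named after their values were seen. The 8 lists of related genes were matched by symbol, and sequences came from RefSeq tables of GRCm38.p6. Alternatives were no filter, a stricter filter, median centring, quantile normalization, a pseudocount of 16, the median of all probe sets, a 1.5-fold size and probe sets without _s_at and _x_at designs.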

Additional observations from a re-analysis of the deposited data

Results flagged for a closer look

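For 7 genes the difference between 4OHT and ethanol had opposite signs in CKO and control cells, and with 1 array per group these differences between genotypes were not tested. On the log2 scale, CKO minus control, the value was -3.60 for Saa1 (-1.87 in CKO and 1.72 in control cells), -4.41 for Saa3 (-2.70 and 1.71), -2.39 for Lcn2 (-1.09 and 1.30) and -2.25 for Orm1 (-1.09 and 1.16). It was -2.32 for Lpo (-1.28 and 1.04), -3.22 for Wfdc12 (-1.67 and 1.55) and -3.67 for Wfdc18 (-2.09 and 1.59).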

How the results depend on the processing

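No direction of a gene reversed under any alternative, and 120 of 134 recomputed counts and medians stayed within 1.5 times (counts) or 0.22 log2 (medians, the widest median difference between 2 arrays). A pseudocount of 16 gave 4 genes lower in CKO 4OHT against CKO EtOH in place of 7, 1 higher in CKO EtOH against control EtOH in place of 3 and 0 apart and lower in CKO 4OHT in place of 3. Its medians were -0.99 against CKO EtOH, -1.65 against control 4OHT, 1.13 for control 4OHT against control EtOH and -2.14 for the difference of the 4OHT differences, as its construction damps dim values. A 1.5-fold size gave 1 gene higher in CKO 4OHT against CKO EtOH, 5 higher in CKO EtOH, 3 apart and higher in control 4OHT and 5 apart and lower in CKO 4OHT. The median difference of the 4OHT differences was -2.39 with a stricter filter, which dropped Saa1, and -2.39 without _s_at and _x_at probe sets, which dropped Wfdc18. Leaving out 1 array, chosen after seeing the data, gave 7 genes apart and lower in CKO 4OHT without control EtOH, and 3 without control 4OHT or without CKO EtOH. The share of all measured genes under these alternatives was not computed, so these counts have no background beside them. No paired analysis was possible because each group had 1 array. Signal over background limits Saa1 most, and Saa3, Wfdc12 and Wfdc18 in CKO 4OHT.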

Other observations

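Wfdc12 and Slpi, which lie close together in the genome, had unlike profiles. In the RefSeq annotation of mouse chromosome 2, Wfdc12 and Slpi belong to the same cluster of WAP domain and seminal vesicle protein genes, with 8 protein-coding genes between them. Of these, 6 had a probe set of their own, 0 reached the level filter, and their intensities were 3.64 to 12.6. Wfdc12 and Slpi, at the ends of that stretch, had log2 differences of -1.67 and 0.92 in CKO 4OHT against CKO EtOH. On chromosome 7 Saa4 lies between Saa3 and Saa1, and it was at 6.02 in CKO 4OHT, 6.98 in CKO EtOH, 7.88 in control 4OHT and 9.61 in control EtOH, under the filter and in another order of arrays than Saa3 and Saa1, whose profiles were 0.35 apart by the measure used above.

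By the same measure of likeness as above, the profile of Prdm1 was 0.31 from Lpo, 0.47 from Wfdc12, 0.50 from Wfdc18, 0.52 from Orm1, 0.61 from Lcn2, 0.65 from Saa3 and 0.67 from Saa1 over the 4 arrays, and 1.34 from Slpi.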
